A study of Mus musculus with 21 samples.

Results

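The comparison set naive mouse embryonic stem cells without MLL3 and MLL4 (DKO) against naive cells that carry both enzymes in a form without catalytic activity (dCD). For every region the difference was the H3K4me1 level of naive DKO cells minus that of naive dCD cells, and it could be formed for 186824 of the 186826 regions in the table. Of these, 157601 lie on chromosomes other than 8, 14, 17 and X, and they are described first. Chromosomes 8, 14, 17 and X hold 11347, 7447, 7820 and 2609 regions and are described apart. H3K4me1 was profiled by CUT&RUN, a method that tethers protein A-MNase to the antibody in intact cells and sequences the chromatin fragments it releases. DKO cells carry the genotype label MLL3KO_MLL4KO and no line label. The dCD cells carry the genotype label MLL3CD_MLL4CD and the line label R1. Both were held in LIF and 2i, the medium of the naive state. The controls used beside them, also naive, were cells labelled MLL3KO_MLL4fl (floxed), which lack MLL3, keep MLL4 and have no line label, and wild-type R1 cells. DKO and dCD are thus lines of different origin, and the difference between them holds the effects of both genotypes and whatever sets the lines apart. Formative DKO and dCD cells, taken 63 h after withdrawal of LIF and 2i, gave the same difference in other libraries of the same lines. Each group had 2 libraries, but the table gives 1 pooled level per group, so no spread between replicates could be computed. The cells were profiled in bulk, and fewer cells with the mark and less of it per cell cannot be told apart. Differences are described by their size, without a test, and a region was counted when its level differed by at least 2-fold.

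Kmt2c encodes MLL3 and Kmt2d encodes MLL4. Both proteins are the catalytic subunits of large COMPASS-like complexes, which place the first methyl group on lysine 4 of histone H3 at enhancers. The complexes also hold the H3K27 demethylase UTX and scaffold subunits, so an inactive enzyme can still bring its partners to chromatin while an absent one cannot. H3K4me1 lies broadly over enhancers and flanks the start sites of genes, and in embryonic stem cells other methyltransferases, among them MLL1, MLL2 and the SETD1 enzymes, also methylate H3K4. The antibody is given inconsistently in the labels. The catalogue number in the protocol text belongs to a product sold against H3K27ac, so the mark is named here as labelled. Levels are log2 values, and log2 differences are printed as such. Normalized reads were recovered from the levels for a view of depth, with medians per region of 31.7 in naive DKO, 31.6 in naive dCD, 37.1 in naive floxed and 39.3 in naive wild-type cells.

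The centres of 4 regions on which the results below turn are shown on the plus strand of mm10, read from the GRCm38 RefSeq sequence, with each CG in capitals. The first is the region highest in DKO relative to dCD, beside Elobl (chr11:88968688-88968987). The second is the region lowest in DKO, nearest to Gm10324 (chr13:65780845-65781144). The third and the fourth, chosen after their values were seen, lie downstream of Spp1 (chr5:104443399-104443698) and of Klf4 (chr4:55504844-55505143), and are the regions of these loci with the highest difference.
Elobl: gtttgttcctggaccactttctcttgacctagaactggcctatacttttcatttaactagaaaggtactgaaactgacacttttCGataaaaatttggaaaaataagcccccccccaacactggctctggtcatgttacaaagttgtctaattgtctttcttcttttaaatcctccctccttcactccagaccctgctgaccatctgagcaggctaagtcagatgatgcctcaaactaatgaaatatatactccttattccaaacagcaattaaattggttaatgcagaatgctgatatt
Gm10324: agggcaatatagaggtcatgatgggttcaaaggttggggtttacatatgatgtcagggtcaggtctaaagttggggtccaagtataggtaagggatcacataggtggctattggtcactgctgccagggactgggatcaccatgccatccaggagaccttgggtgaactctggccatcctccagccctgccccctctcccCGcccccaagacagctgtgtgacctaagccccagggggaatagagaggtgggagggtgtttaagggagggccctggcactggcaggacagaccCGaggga
Spp1: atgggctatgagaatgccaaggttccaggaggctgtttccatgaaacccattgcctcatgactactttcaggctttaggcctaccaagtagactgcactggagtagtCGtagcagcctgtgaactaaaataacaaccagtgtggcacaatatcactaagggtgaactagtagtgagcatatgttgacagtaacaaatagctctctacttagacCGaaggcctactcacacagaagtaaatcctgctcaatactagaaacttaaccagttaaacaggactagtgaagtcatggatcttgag
Klf4: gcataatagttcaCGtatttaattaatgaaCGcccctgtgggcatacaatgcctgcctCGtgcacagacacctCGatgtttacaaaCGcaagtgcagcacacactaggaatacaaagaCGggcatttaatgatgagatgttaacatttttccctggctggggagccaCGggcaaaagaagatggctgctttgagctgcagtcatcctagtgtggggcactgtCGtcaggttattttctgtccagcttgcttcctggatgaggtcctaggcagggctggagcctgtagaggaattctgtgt
The Klf4 window holds 8 CG, the Gm10324 and Spp1 windows 2 each and the Elobl window 1. None of them holds ATGCAAAT (the octamer bound by OCT4 and its relatives), TCAAGGTCA (the ESRRB element) or CCACACCC (a KLF element) on either strand, which says only that these letters are not in these windows.

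Naive DKO and dCD cells had closely similar H3K4me1 landscapes on the other chromosomes. The median difference was 0.04, and 133062 regions, or 84.4%, lay within 1.5-fold. At least 2-fold higher in DKO were 2147 regions (1.36% of those compared) and at least 2-fold lower 3451 (2.19%). Each mutant stood further from its own control than from the other mutant. DKO minus floxed had 30878 regions past 2-fold either way (19.6%), dCD minus wild type had 23176 (14.7%), and DKO minus dCD had 5598 (3.55%). Within 1.5-fold were 55.6% of regions in DKO minus floxed and 60.1% in dCD minus wild type. These comparisons share the DKO and dCD columns and are not independent of each other. The controls themselves, floxed minus wild type, differed 2-fold at 1341 regions higher (0.851%) and 5870 lower (3.72%). These are 7211 either way, more than in DKO minus dCD, although fewer were higher. Across the 157601 regions the levels of DKO and dCD had a Pearson correlation of 0.90, a description over regions that share width and mappability.

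Promoter regions, those within 1 kb of a start site, were slightly higher in DKO. Their median difference was 0.12 over 9037 regions, against 0.01 for exonic, 0.03 for intronic and 0.04 for intergenic regions. The control lines differed as much, with a promoter median of 0.16 for floxed minus wild type. Against their own controls the promoter medians were 0.40 for DKO minus floxed and 0.43 for dCD minus wild type. In formative cells the promoter median of DKO minus dCD was −0.00. The naive promoter difference was larger where CpG was dense, with medians of 0.02, 0.07, 0.14 and 0.17 in promoter classes of under 1, 1 to 2, 2 to 4 and at least 4 CpG per 100 bp. Floxed minus wild type rose likewise over these classes, with medians of 0.04, 0.08, 0.19 and 0.24. Few promoter regions passed 2-fold, 40 higher and 52 lower. Away from promoters, both ends of the CpG range were lower in DKO. Of 13483 distal regions with under 0.5 CpG per 100 bp, 1111 (8.24%) were 2-fold lower in DKO and 284 (2.11%) higher. Of 1104 distal regions with at least 4 CpG per 100 bp, 194 (17.6%) were lower and 10 (0.906%) higher. Between these ends, in the 73890 regions with 1 to 2 CpG per 100 bp, 0.912% were lower and 1.30% higher. Repeat-rich regions were lower in DKO as a class. Among the 3360 regions masked as repeats over at least 75% of their length the median was −0.36, with 587 (17.5%) lower and 83 (2.47%) higher in DKO, while the 107577 regions masked over less than 25% had a median of 0.06. The same repeat-rich class had a median of −0.31 in formative DKO minus dCD and −0.26 in floxed minus wild type.

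**Figure D1:**
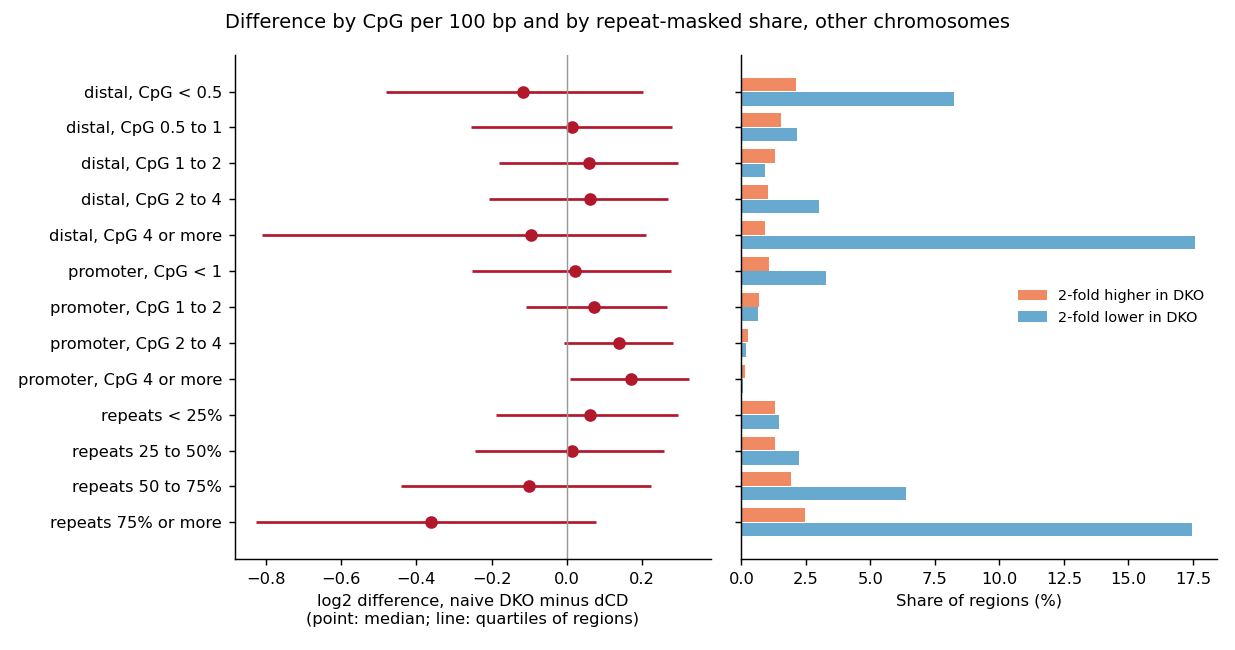
Naive DKO minus dCD by CpG per 100 bp (distal and promoter regions) and by repeat-masked share, on chromosomes other than 8, 14, 17 and X. Points are medians and lines quartiles over regions, in log2, and bars give the share of regions at least 2-fold higher or lower in DKO; shares lower in DKO reach 17.6% in CpG-dense distal regions and 17.5% in repeat-rich regions.

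Regions past 2-fold were small, shallow and mostly intergenic. Median width was 1226 bp for those higher in DKO and 1283 bp for those lower, against 1988 bp for the regions between. The levels include an added 1 that makes differences smaller in wide regions, and its part in this was not tested. Intergenic were 55.4% of the higher and 63.6% of the lower regions, against 42.3% of those between. Shallow regions passed more often than deep ones. Of regions with under 8 normalized reads in the higher of both groups, 3.24% were higher and 9.31% lower in DKO, and in the deepest class 0.266% were higher and 0.786% lower. Regions that change in wild-type cells between the states had medians near 0 and were lower in DKO somewhat more often than stable ones. By the FDR of the authors' deposited table under 0.05, the 15750 regions gained in wild-type formative cells had a median DKO minus dCD of 0.06, the 16300 lost regions −0.01 and the 72198 stable regions 0.04. Higher and lower in DKO were 1.55% and 3.26% of the gained regions, 0.988% and 2.53% of the lost regions and 1.04% and 1.73% of the stable regions. Of all regions 1.36% were higher and 2.19% lower, so the shares of the lost regions lay near those of all. H3K27ac, the mark of active enhancers, differed in the same direction in the median. In the authors' deposited table the median log2 fold of H3K27ac in naive DKO over wild type was 0.45 at regions with H3K4me1 higher in DKO than in dCD, −0.77 at those lower and 0.09 between. That fold rests on other libraries and has wild type, not dCD, below it. Its quartiles crossed 0 in both classes, −0.82 to 2.02 at higher and −2.34 to 0.41 at lower regions. Where floxed minus wild type was 2-fold the same way, its medians were 1.07 at higher and −1.78 at lower regions. At the remaining higher and lower regions they were 0.41 and −0.50. A KLF element (CCACACCC on either strand in the central 500 bp) lay in 9.18% of higher, 3.54% of lower and 5.54% of the other regions, and in 5.55% of all. The octamer (ATGCAAAT) lay in 4.42% of higher, 4.09% of lower and 3.62% of the other regions, and the ESRRB element (TCAAGGTCA) in 1.68%, 1.42% and 1.79%.

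The formative libraries showed part of the same difference. Of the 2147 regions higher in naive DKO, 402 (18.7%) were also 2-fold higher in formative DKO than in formative dCD, and of the 3451 lower regions 993 (28.8%) were also lower. Among those with at least 32 reads the shares were 33.9% of higher and 38.02% of lower regions. Over all 157601 regions formative DKO minus dCD counted 2.43% higher and 2.02% lower. Opposite calls were rare. Over all chromosomes 3.94% of regions passed 2-fold in naive and 4.75% in formative cells, 1968 regions passed in both, and 114 of these did so in opposite directions. With depth the states came closer, the Pearson correlation of the naive and the formative difference being 0.35 over all 157601 regions and 0.48 over the 87321 with at least 32 reads. Both differences involve the same pair of lines, so line and genotype cannot be told apart in what recurs.

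The control lines differed at some of the same regions. Of the regions lower in DKO, 849 (24.6%) were also 2-fold lower in floxed than in wild-type cells, against 3.72% of all regions. Of the higher regions, 139 (6.47%) were also higher in floxed cells, against 0.851% of all. With at least 32 reads these shares were 37.9% of lower and 9.0% of higher regions. Where the controls differed the same way, the naive difference recurred more often in formative cells. Of the 849 such lower regions 463 (54.5%) were 2-fold lower in formative DKO as well, and of the other 2602 lower regions 530 (20.4%) were. Of the 139 such higher regions 64 (46.0%) recurred, and of the other 2008 higher regions 338 (16.8%) did. Set against the controls, a different mutant stood off in each direction. At regions higher in DKO, the median was 0.15 for DKO minus floxed and −0.99 for dCD minus wild type, and 1065 of them (49.6%) were 2-fold lower in dCD than in wild type, against 13.1% of all regions. At regions lower in DKO, the median was −0.93 for DKO minus floxed and 0.02 for dCD minus wild type, and 1622 (47.0%) were 2-fold lower in DKO than in floxed cells, against 15.1% of all. These medians are a description, since the DKO and dCD levels that chose the regions enter them.

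Chromosomes 14 and 17 were lower in DKO as a whole. Their median differences were −0.28 and −0.29, while the 16 other autosomes reported together ranged from 0.02 to 0.06. On chromosome 14, 489 regions (6.57%) were 2-fold lower in DKO and 39 (0.524%) higher, and on chromosome 17 507 (6.48%) and 40 (0.512%). The shift ran along both chromosomes. All 13 bins of 10 Mb on chromosome 14 had medians below 0, between −0.38 and −0.14, and all 10 on chromosome 17, between −0.37 and −0.24. It was present in every kind of region, with promoter medians of −0.21 on chromosome 14 and −0.23 on chromosome 17 and intergenic medians of −0.28 and −0.29. Formative DKO minus dCD gave −0.22 and −0.26. Median reads per region of chromosome 14 were 23.96 in DKO, 29.2 in dCD, 35.2 in floxed and 36.8 in wild-type cells. Set against the controls, DKO minus floxed had medians of −0.48 and −0.50, below the −0.22 to −0.08 of the other autosomes, while dCD minus wild type, −0.29 and −0.25, lay within their range of −0.33 to −0.20. Floxed minus wild type was near 0 on both, −0.02 and 0.02. Counted from the chromosome's own median, chromosome 14 had 210 regions lower and 124 higher and chromosome 17 had 193 and 122. What sets DKO apart from the other groups on these chromosomes was not tested.

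Chromosome 8 was level between the mutants although wild type stood apart from the other groups. The median DKO minus dCD was 0.07, just above the 0.02 to 0.06 of the other autosomes, with 187 regions (1.65%) higher and 243 (2.14%) lower. Floxed minus wild type had a median of −0.45 on chromosome 8 and 1501 regions (13.2%) 2-fold lower. The median of dCD minus wild type was −0.57 and that of DKO minus floxed 0.00, both outside the ranges of the other autosomes. Median reads per region of chromosome 8 were 31.6 in DKO, 29.7 in dCD, 32.6 in floxed and 46.2 in wild-type cells, so wild type was the high group. Chromosome X had a median of −0.02 and a wide spread, with 79 regions (3.03%) higher and 173 (6.63%) lower in DKO. Its regions were shallow, with medians of 16.6 reads in DKO and 17.8 in dCD. Bins of 10 Mb with few regions were left out, and in 7 of the 14 kept on X the median was below 0. The lowest, from 60 to 70 Mb, had −0.48 over 71 regions. Chromosome Y, counted among the other chromosomes, had 32 regions, 16 higher and 7 lower.

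**Figure D2:**
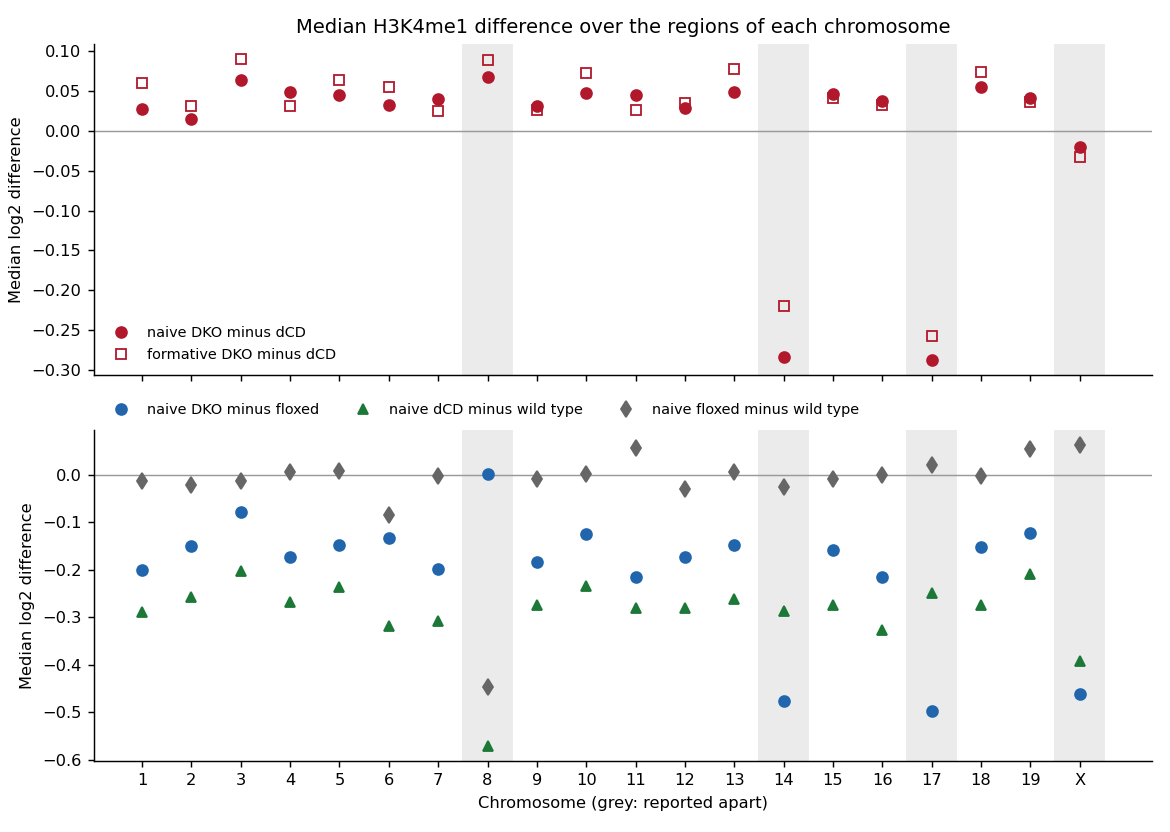
Median log2 H3K4me1 difference over the regions of each chromosome, for DKO minus dCD in naive and formative cells (top) and for the naive mutants against their controls and the controls against each other (bottom). Chromosomes 14 and 17 stand at −0.28 and −0.29 in naive DKO minus dCD, and chromosome 8 stands apart in dCD minus wild type and floxed minus wild type.

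**Figure D3:**
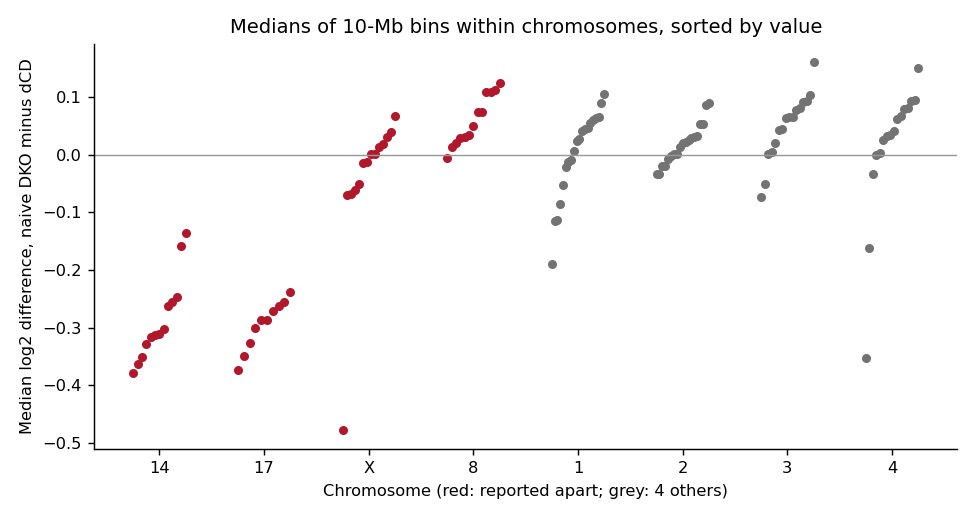
Medians of naive DKO minus dCD (log2) in bins of 10 Mb, 1 point per bin, sorted by value within the 4 chromosomes reported apart and 4 others. Bins with few regions, among them several on X, are left out. Every bin of chromosomes 14 and 17 lies below 0, and single low bins reach −0.48 on X and −0.35 on chromosome 4.

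The regions highest in DKO lay beside a gene for an elongin B relative. Among regions with at least 32 normalized reads in the higher group, the 10 highest and the 10 lowest of different nearest genes were taken, and a nearest gene need not be the target. Upstream of Elobl, named as elongin B-like (chr11:88968167-88969508), reads were 291 in DKO, 21.8 in dCD, 330 in floxed and 31.97 in wild-type cells, a difference of 3.72. The neighbouring region beside 2210409E12Rik (chr11:88969877-88970802) had 215 reads in DKO, 16.5 in dCD, 230 in floxed and 27.4 in wild-type cells, a difference of 3.69. At both, DKO went with floxed and dCD with wild type, and in formative cells the Elobl region had 197 reads in DKO and 26.7 in dCD. An intronic region of Bicd1, the gene of a dynein adaptor (chr6:149470887-149472119, 2.90), an intronic region of Erdr1 on chromosome Y (chrY:90798731-90799326, 2.82) and a region 22.3 kb upstream of Ccl28, a mucosal chemokine gene (chr13:119600983-119602154, 2.75), likewise had DKO and floxed above dCD and wild type. Floxed minus wild type was 2.18, 1.55 and 1.63 there.

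In the other 5 highest regions the controls did not differ 2-fold the same way. Near Mir467e (chr1:10879959-10880767) DKO had 36.3 reads, floxed 29.5 and wild type 28.3, while dCD had 6.0 (a difference of 2.58), so dCD alone was low. In an intron of 4930586N03Rik (chr13:23323892-23327146), 89.7% masked as repeats, DKO alone was high, with 129 reads in DKO, 20.2 in dCD, 30.7 in floxed and 34.7 in wild-type cells (2.56). DKO was also the high group in an intron of Mcc, a negative regulator of the cell cycle (chr18:44739568-44740932, 2.46), with 43.2 reads in DKO, 7.5 in dCD, 14.03 in floxed and 11.9 in wild-type cells. Far from Skor2, a transcriptional corepressor gene (chr18:76602070-76603322, 2.35), the controls went the other way, with 42.8 reads in DKO, 8.2 in dCD, 3.0 in floxed and 21.9 in wild-type cells. Of the 10 highest regions 9 were also 2-fold higher in formative DKO, and the exception was the Skor2 region (0.50).

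The regions lowest in DKO lay largely where floxed cells were low too. Nearest to Gm10324 (chr13:65780740-65781248) the table lists 0 reads in DKO, against 36.4 in dCD, 1.4 in floxed and 26.4 in wild-type cells, and no fold is given against a value of 0. At the end of 2410141K09Rik (chr13:66429402-66432449) reads were 0.65 in DKO, 150 in dCD, 9.4 in floxed and 123 in wild-type cells. An intergenic region 321 kb from Nucb2, the gene of a calcium-binding protein (chr7:116824468-116825864), had 3.2 reads in DKO, 66.7 in dCD, 0.78 in floxed and 46.2 in wild-type cells, a difference of −4.20. At each of these, DKO and floxed were low and dCD and wild type high. DKO and floxed were likewise below dCD and wild type near Gm2083 in the Mup cluster (chr4:61557598-61559161, −3.71), 4921507P07Rik (chr6:50607883-50609888, −3.70), Bmp10, a cardiac BMP ligand (chr6:87457049-87458251, −3.36), Gm9895 (chr19:29082684-29084209, −3.20) and B3galnt1, a glycosyltransferase gene (chr3:69630302-69631879, −3.13), with floxed minus wild type at −2.94, −3.53, −3.09, −2.40 and −1.76. Near Uqcrb, a complex III subunit gene (chr13:66858045-66859994, −2.88), DKO had 28.5 reads, dCD 214, floxed 61.3 and wild type 172. Near 4930591E09Rik (chr10:37935034-37936311, −2.97) floxed minus wild type was −0.71, under 2-fold as at no other of these 10 regions. Of the 10 lowest regions 8 were 2-fold lower in formative DKO, and B3galnt1 (−0.51) and 4930591E09Rik (−0.76) were not.

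**Figure D4:**
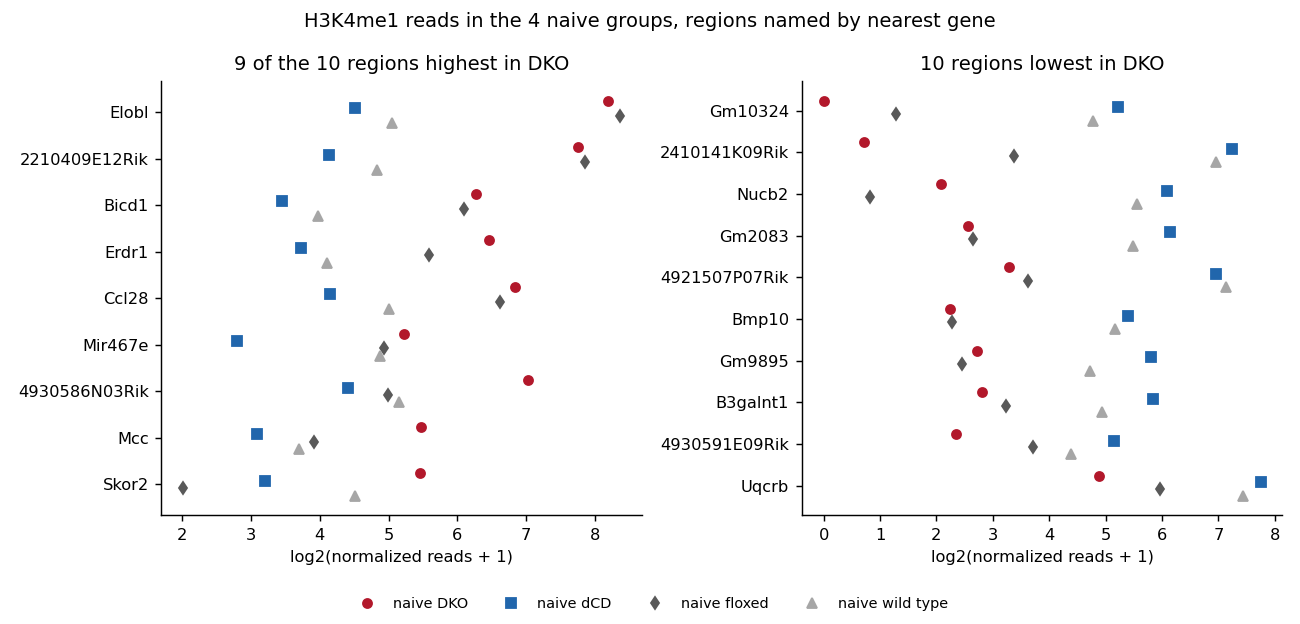
H3K4me1 reads in the 4 naive groups at 9 of the 10 regions highest and at the 10 lowest in DKO relative to dCD, as log2 of normalized reads plus 1, 1 point per pooled group. In 9 of the 10 lowest regions floxed lies at least 2-fold under wild type, as DKO lies under dCD, and in 5 of the 9 high regions floxed lies at least 2-fold over wild type.

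Several low regions belonged to a block. Between 65 and 67 Mb of chromosome 13, 181 of 259 regions were 2-fold lower in DKO and 0 higher, with a median of −1.81. Formative DKO minus dCD had a median of −1.40 in the block, and floxed minus wild type −1.54. Median reads there were 11.9 in DKO, 43.5 in dCD, 18.6 in floxed and 50.2 in wild-type cells, and the block holds 5.24% of all lower regions. Smaller runs were the megabase from 15 Mb of chromosome 5, with 39 of 70 regions lower, the one from 115 Mb of chromosome 12, with 20 of 21, and the one from 61 Mb of chromosome 4, with 19 of 24. The 12 megabases with most lower regions together held 11.2% of the lower regions. Without them, CpG-dense distal regions were still lower in 17.6% and repeat-rich regions in 17.04%. Distal regions with under 0.5 CpG per 100 bp went from 8.24% to 7.05% lower, and 16.8% of their lower regions lay in these 12 megabases. Higher regions were less gathered, with the megabase from 90 Mb of Y, 15 of 16 regions higher, in front.

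Several gene families in tandem clusters were also lower in DKO, and of these the Mup genes lie in the run on chromosome 4. The families were chosen after their values were seen and are described without a test. Of 49 regions nearest to major urinary protein (Mup) genes, 26 were lower and 2 higher in DKO, with a median of −1.03, while 2.19% of all regions were lower and 1.36% higher. Naip genes, sensors of bacterial proteins, had 13 of 24 regions lower (median −1.13), and Tdpoz genes 11 of 20 (−1.39). Floxed minus wild type had medians of −0.64, −1.09 and −0.79 over these families. Vomeronasal receptor genes, with 35 of 294 lower (11.9%, median −0.25), and olfactory receptor genes, with 41 of 624 (6.57%, median −0.11), had smaller shares, still above that of all regions. Of 2288 regions nearest to zinc finger (Zfp) genes 72 (3.15%) were lower and 27 (1.18%) higher, with a median of 0.02.

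On the chromosomes reported apart, the 3 highest and the 3 lowest regions of each chromosome ranged from −3.10 to 2.36. On chromosome 8 the highest lay in introns of Adam32 (chr8:24934830-24936528, 1.96), Nr3c2, the mineralocorticoid receptor (chr8:77132419-77134017, 1.82), and Klhdc4 (1.82), and among the lowest were regions near Mir8110 (−1.59) and 4930470O06Rik (−1.57). On chromosome 14 they lay near A230070E04Rik (1.52), Fam107a (1.45) and in Slc25a37, the mitochondrial iron importer (1.36), and in 1700128A07Rik (chr14:106474340-106475885, −3.10), near Gm30214 (−2.64) and in Gm5622 (−2.50). On chromosome 17 the highest were near Esp5, a pheromone peptide gene (2.03), in Akap8l (1.87) and over Rn45s, the 45S pre-ribosomal RNA (1.73). Rn45s stands for a repeated locus, with 3989 reads in DKO, 1198 in dCD, 2995 in floxed and 646 in wild-type cells, so its value cannot be placed in a single copy. The lowest on chromosome 17 were in H2-T24, a class Ib histocompatibility gene (chr17:36018931-36021440, −2.74), 1.4 Mb from Nudt12 (−2.38) and in Gm20939 (−2.21). On X the highest were near G530011O06Rik (2.36), Cybb, the catalytic subunit of the phagocyte NADPH oxidase (1.64), and in Gm14858 (1.31), and the lowest near Dcaf12l2 (−2.22), Mir3472 (−2.08) and Gm6760 (−2.08). All of them differed in the same direction in formative cells except Gm14858 (−0.14). Floxed minus wild type is given in the order named. At the lowest regions it was −0.34 and 0.38 on chromosome 8 and −3.35, −1.85 and −2.51 on 14. It was −1.48, −1.09 and 0.40 on 17 and −1.17, −1.12 and −1.38 on X. At the highest regions it was 0.03, −1.16 and 0.98 on chromosome 8 and −0.43, 0.82 and 0.95 on 14. There it was 0.58, 0.76 and 2.20 on 17 and 0.01, −0.33 and 0.52 on X.

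Around the genes of pluripotency, development and H3K4 methylation the mutants differed little. For each gene, the differences of all regions assigned to it as nearest gene and lying within 50 kb were averaged into 1 locus value, and a locus was counted at 1.5-fold. Of 21535 loci 344 (1.6%) were higher and 725 (3.37%) lower in DKO. Of the 208 genes of 15 lists that had a region, 4 were higher, 2 lower and 202 within 1.5-fold, with a median of 0.04. These 6 are 2.88% of the list genes, against 4.96% of all loci past 1.5-fold either way. All loci take in many with few regions, so the 2 shares are not of like loci. Among the 11254 loci with at least 4 regions on the other chromosomes, only 57 were higher and 104 lower. List medians ran from −0.15 for genes of DNA methylation to 0.17 for fibroblast genes, which stand here for feeder cells.

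Of the 22 naive pluripotency loci 1 was higher, none was lower, and the median was 0.06. Against their own controls these loci had moved far more, with 11 lower in DKO than in floxed and 10 lower in dCD than in wild-type cells, 8 of them in both. Of all loci 16.3% were lower in DKO than in floxed and 15.2% lower in dCD than in wild-type cells. Esrrb, an orphan nuclear receptor of the naive network, differed by 0.06 over 27 regions, Nanog by 0.18, Tfcp2l1 by −0.07, Prdm14 by 0.00 and Klf2 by −0.21. The locus past 1.5-fold was Spp1, the gene of the secreted protein osteopontin (0.69 over 7 regions). Its most different region, 7.4 kb downstream of the start (chr5:104442158-104444939), had 91.7 reads in DKO, 30.1 in dCD, 94.5 in floxed and 75.2 in wild-type cells, so dCD was the low group. The formative value there was 1.34, and the regions over the 2 annotated Spp1 promoters differed by 0.90 and 0.23. Klf4, a Krüppel-like factor of the naive network, had a locus difference of 0.20 and 2 of 15 regions past 2-fold. In the more different of them (chr4:55504152-55505834) reads were 75.9 in DKO, 36.0 in dCD, 45.4 in floxed and 48.0 in wild-type cells, and the formative difference was 1.42. The formative Klf4 locus was higher in DKO by 0.65, and the authors' deposited table gives its RNA a log2 fold of 1.85 in naive DKO over wild type. Of the list, 21 genes have an RNA fold in that table, 7 above 0 and 14 below, with 3 at least 2-fold up and 4 down.

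Of the 22 formative and primed loci with regions, Fgf5, the growth factor gene that marks the exit from the naive state, was higher (0.59 over 13 regions), and the list median was 0.00. After centring the groups on their medians the Fgf5 locus was at 0.56, under 1.5-fold. All 13 Fgf5 regions were above 0, but in formative cells the locus stood at −0.06. The Fgf5 value leans on a shallow intronic region (chr5:98271714-98272562, 1.98) with 4.8 reads in DKO and 1.1 in dCD. Summed reads of the Fgf5 locus were 640 in DKO and 477 in dCD. Otx2, a homeobox factor of the formative state, was at −0.50, on chromosome 14. Among 20 WNT, FGF and TGF-beta loci Lefty1, a NODAL antagonist, was higher (0.77), and in formative cells it was at −0.05. The Lefty1 value leans on a region 5.4 kb upstream (chr1:180928982-180930319) with 16.5 reads in DKO and 3.9 in dCD. Core pluripotency loci had a median of −0.09, with Pou5f1 (−0.12) and Sox2 (−0.04) near 0. Neural, streak and mesoderm, endoderm, trophoblast and germ line loci had medians of 0.10, 0.15, 0.01, 0.04 and −0.12, with no locus past 1.5-fold in any of these lists. Housekeeping loci had a median of 0.12 and imprinted loci 0.00, likewise with none past 1.5-fold.

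Among 2-cell-like genes, which mark a rare state resembling the early embryo, Tdpoz1 was higher (0.78, 1 region) and Tcstv3 lower (−0.82, 2 regions). Both differences had the same sign in floxed minus wild type, 1.48 and −0.81. In the DNA methylation list Mbd1, a methyl-CpG binding protein, was lower (−0.63 over 2 regions), and its formative value was 0.06. The Mbd1 value comes from a region 15.5 kb upstream (−1.21), with 21.7 reads in DKO and 50.9 in dCD. The region 0.5 kb from the start was at −0.06. None of the 16 loci of H3K4 methyltransferase complexes, demethylases and their partners passed 1.5-fold. Kmt2c, the gene of MLL3, differed by −0.42 over 11 regions, with 338 reads in DKO, 448 in dCD, 479 in floxed and 484 in wild-type cells. Kmt2d, the gene of MLL4, differed by −0.04 over 4 regions, with 664 reads in DKO, 714 in dCD, 538 in floxed and 611 in wild-type cells. H3K4me1 at these genes does not check the genotypes. Setd1a, Kmt2a and Kmt2b, the genes of other H3K4 methyltransferases, differed by 0.32, 0.03 and 0.07, and Kdm6a, the gene of UTX, by −0.09.

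**Figure D5:**
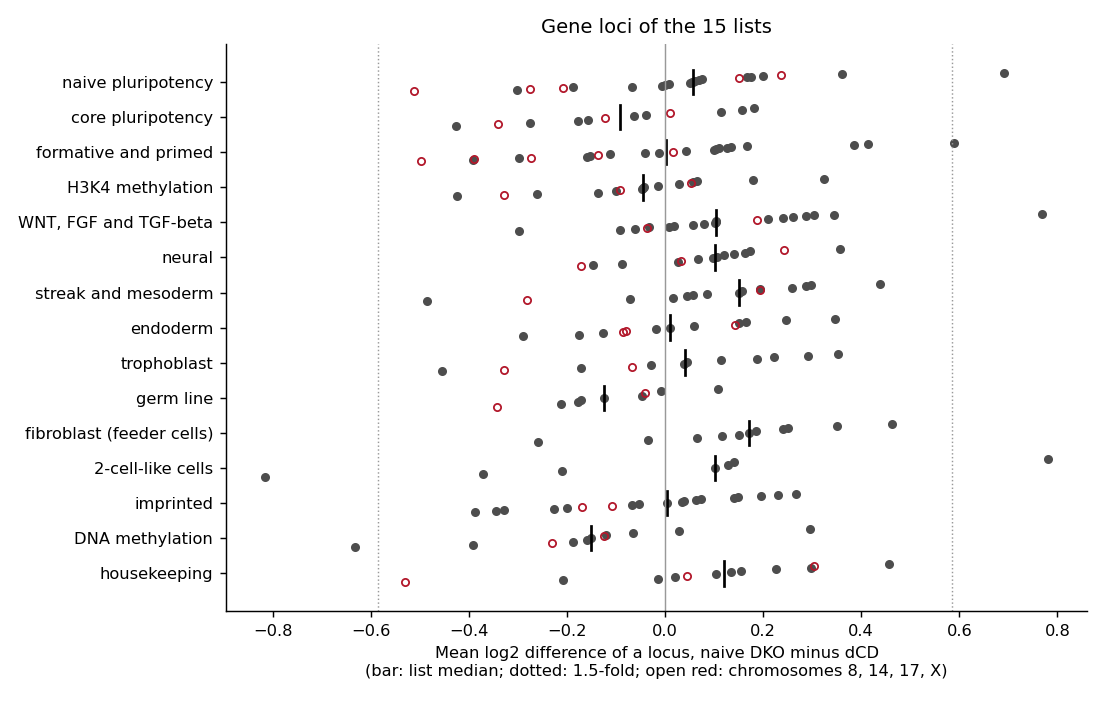
Mean log2 difference of each gene locus, naive DKO minus dCD, for the 15 lists; points are loci, bars list medians, dotted lines 1.5-fold, and open red points loci on chromosomes 8, 14, 17 and X. Of the 208 genes 202 lie within 1.5-fold, and the 6 outside are Spp1, Fgf5 (under 1.5-fold after centring), Lefty1 and Tdpoz1 above and Tcstv3 and Mbd1 below.

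Beyond single lists, 57 loci were higher and 104 lower among the 11254 loci with at least 4 regions on the other chromosomes. Without the limit on regions, 1.57% of loci there were higher and 2.5% lower. Highest were Erdr1 (1.74), Ccl28 (1.35), Trps1, a GATA-type repressor gene (0.99), Mroh2a (0.92), Samd9l, an antiviral gene (0.91), Trpm8, the cold receptor (0.91), and Ccr1, a chemokine receptor (0.91), followed by Mthfd2l (0.88), a mitochondrial folate enzyme gene, 4930444G20Rik (0.86) and Slc25a48 (0.85). At Trps1 the summed reads of 11 regions were 747 in DKO, 458 in dCD, 725 in floxed and 668 in wild-type cells, so dCD was the low group. At Ccr1 they were 861 in DKO, 390 in dCD, 404 in floxed and 289 in wild-type cells, so DKO was the high group. Lowest were Gm10324 (−3.23), 2410141K09Rik (−3.08), Gm2083 (−2.61), Mup9 (−1.88), Naip6 (−1.66), Mup15 (−1.60), Tdpoz4 (−1.57), Naip7 (−1.56), 4930572O03Rik (−1.53) and Vmn1r29 (−1.46). In formative cells 7 of the 10 highest and all 10 lowest loci passed 1.5-fold the same way, against 2.06% higher and 2.38% lower among all loci there. Floxed minus wild type passed it the same way at 4 of the 10 highest and all 10 lowest, against 1.5% higher and 4.05% lower among all loci there.

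RNA was compared over all loci with an RNA fold on the other chromosomes, whatever their number of regions. In the authors' deposited table, 79 such loci with H3K4me1 higher in DKO than in dCD had a median RNA log2 fold of 0.46 in naive DKO over wild type, with 28 at least 2-fold up and 5 down. The 73 lower loci had a median of −0.31, with 26 at least 2-fold down and 6 up, and the 8904 loci between had 0.07, with 855 up and 1005 down. These RNA folds again have wild type and not dCD below them. The largest RNA fold among the 10 highest loci was that of Slc25a48 (3.29), a mitochondrial carrier gene, followed by Mthfd2l (3.01), and 2410141K09Rik had −2.27 in the same table.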

How the data were processed

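H3K4me1 was measured by CUT&RUN in 16 libraries of 8 groups, and 4 naive groups and 2 formative groups were compared here. Per the submitters' processing notes, Trim Galore, Bowtie2, SEACR, DiffBind and deepTools were used with build mm10; versions, the role of each tool and any use of the yeast spike-in are not given in the sources used. The deposited levels are log2 values, 1 pooled column per group of 2 libraries, per the file headers and labels. The abbreviation CKO in the column names was matched to the floxed samples through their descriptions. The authors' deposited table also gives a p-value and FDR for formative against naive wild type, and log2 folds of H3K27ac and RNA. Another 14 columns of levels were not used, and the IgG and MLL4 libraries were not analysed here.

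Levels followed log2 of 1 plus a constant times reads over squared width, and normalized reads were recovered from them; the depth of single libraries is unknown, and in wide regions the added 1 makes differences smaller. The planned test needs replicates, so regions were called at 2-fold and loci at 1.5-fold without a test. CpG and repeats came from the GRCm38 RefSeq sequence (soft-masked bases), and 271 regions whose gene names had turned into dates stayed unnamed. Named regions are the 10 highest and 10 lowest with at least 32 reads, 1 per gene, and 3 each on chromosomes 8, 14, 17 and X; named loci need at least 4 regions. Of the regions chosen this way, 2 are not reported here. Members and lists were chosen with earlier results of these data known. Alternatives were another scaling, a depth filter, an added read and a 20 kb window. The caller was tested on simulated data. Python 3.11.15, pandas 2.3.3, numpy 2.4.6 and pysam 0.24.0 were used.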

Additional observations from a re-analysis of the deposited data

How the results depend on the processing

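No paired analysis was possible because each group has 1 pooled column, which carries no replicate number, and leaving out a replicate could not be done either. Keeping regions with at least 32 normalized reads left 713 higher and 1194 lower regions on the other chromosomes; 33.2% of higher and 34.6% of lower regions were that deep, against 55.4% of all. Of higher regions 33.9% then recurred in formative cells and 9.0% were 2-fold higher in floxed than in wild type; of lower regions 38.02% recurred and 37.9% were lower in floxed. Centring each group on its median, which removes a shift of 0.03, gave 1897 higher and 3768 lower regions, and medians of 0.0884 for promoter and 0.0123 for intergenic regions; exonic (−0.0194) and intronic (−0.00455) medians changed sign. With at least 32 reads the intronic median was 0.0336 and the intergenic 0.0601. Fgf5 fell under 1.5-fold with centring (0.56). Within 20 kb, 3 list loci were higher and 3 lower, Tdh (−0.63, on chromosome 14) being added. Relative to the chromosome's own median, chromosome 14 had 124 higher and 210 lower regions and chromosome 17 had 122 and 193, by construction. Quantile scaling (2123 higher, 3399 lower) and log2 of reads plus 1 (1771 and 3078) stayed within 1.5 times, as did the count without chromosome 13 from 65 to 67 Mb, chosen after seeing the data (2147 and 3270). Counting noise limits shallow regions, and variation between cultures cannot be seen in pooled columns.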
